A study of Drosophila melanogaster with 24 samples.

Results

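The Cpr genes encode the Rebers-Riddiford cuticle proteins of the fly, named after the conserved chitin-binding stretch that they share. They were taken here as every gene whose symbol in the probe set annotation starts with Cpr and a digit, and 66 such genes of 11981 genes had a probe set of their own. The gene Cpr itself, a cytochrome P450 reductase, has no digit and is not a member. The current gene table of the fly lists 70 symbols of this form. Of the remaining 4, Cpr57A, Cpr65Ax1 and Cpr65Ax2 were named only on probe sets that also name another gene, and Cpr65Ay is not analysed here.

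Cuticle proteins are secreted by epidermal cells and by other epithelia that line the outside of the body, such as the trachea and the foregut. They bind to chitin fibres, and together these make the layered cuticle, which is laid down anew before each moult under the control of the hormone ecdysone. Different members are used in the embryo, the larva, the pupa and the adult, and in soft or hard cuticle. The number and letter in a symbol give the band of the polytene chromosome where the gene lies, as in Cpr64Ab at 64A. S2 is a cell line from fly embryos that resembles hemocytes, the blood cells, which are not known for making cuticle.

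The source field of all 24 arrays names epidermal tissue of late embryos. The titles carry that tissue name too, followed by the name of a mix of S2 cells, and the design text names S2 cells. The level of genes that mark epidermis is set beside these labels here. No array of known epidermis was there for comparison, so that level alone cannot decide between them. Cells of 2 populations were mixed for 45 minutes and the RNA of the whole mix was measured, and 2 independent samples were pooled for each replicate. The lines carried Delta (Dl), Delta without its intracellular domain (DlDI), or NFull or NDCterm, which are read here as forms of Notch since the labels do not spell them out. All groups were S2 populations, and the labels do not give the promoter that drove a transgene or whether a line was 1 clone. The groups were S2/S2 (3 samples), S2/S2-Dl (3), S2/S2-DlDI (2 samples), and, with NDCterm cells, the mixes S2/S2-NDCterm (2) and, beside Dl cells, S2-NDCterm/S2-Dl (2). Cells with NFull were measured in 1 sample each beside plain cells (S2-NFull/S2), beside Dl cells (S2-NFull/S2-Dl) and beside DlDI cells (S2-NFull/S2-DlDI). Mixes are written with a stroke between their populations. In RNA from a mix, fewer cells that make a transcript and less of it per cell cannot be told apart.

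Some arrays stood apart. A title was used for 2 arrays in 5 cases. Only the pair of S2-NFull/S2-DlDI replicate 2 differed by less than separate replicates do, and it was averaged, while the other 8 arrays entered no comparison. Notch itself is not analysed here. In the 15 samples kept, Delta signal was between 11070 and 12968 in the 6 samples with Dl cells and at most 41.3 in the other 9. The array median over the probe sets tested was 10.3 to 14.2 in 14 samples and 21.0 in S2/S2 replicate 2, whose low signals were thus higher than elsewhere. The values carry no detection call, and the precision is limited by the number of arrays.

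No Cpr gene had a high signal in any sample. Over 66 genes and 15 samples the 990 signals ran from 0.337 to 47.5 with a median of 5.27, and 719 of them were below 10. None was above 50, a level that 43.8% to 46.5% of all genes exceeded in these samples. None of the 66 had a mean above 100 in any of the 8 mixes. The share of all genes above 100 was 38.5% in S2/S2, 38.3% in S2/S2-Dl, 37.8% in S2/S2-DlDI, 37.4% in S2/S2-NDCterm, 38.1% in S2-NDCterm/S2-Dl, 37.6% in S2-NFull/S2, 38.3% in S2-NFull/S2-Dl and 37.8% in S2-NFull/S2-DlDI. Signals of this size cannot show that a transcript is absent, only that it was not seen above the low end of the scale.

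**Figure D1:**
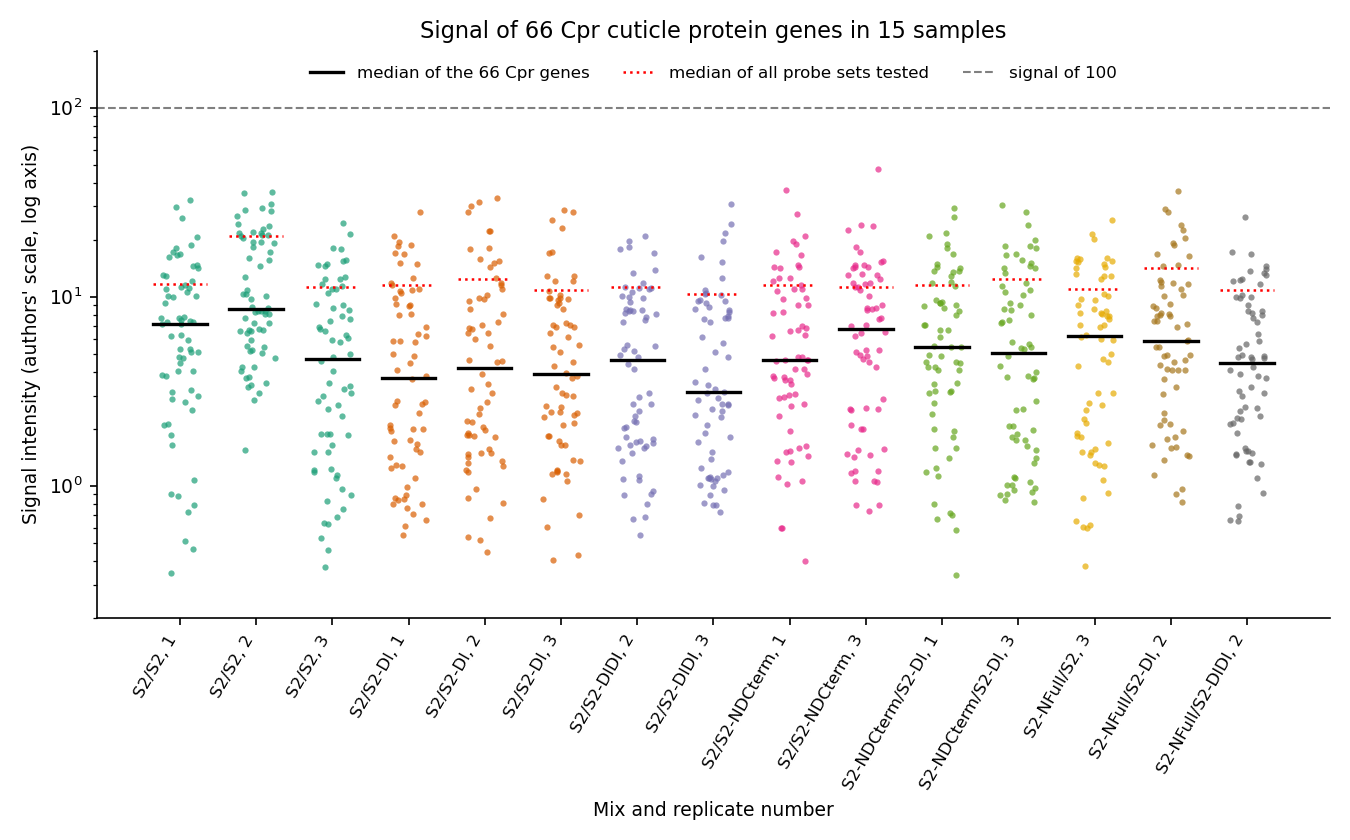
Each point is the signal intensity of 1 of 66 Cpr genes (log axis) in 1 of 15 samples, coloured by mix. The black bar is the median of the Cpr genes, between 3.12 and 8.56, the red dotted bar is the median of all probe sets on that array, and no point reaches the dashed line at 100.

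The median Cpr signal was 8.59 in S2/S2, where the median over all genes was 26.3. It was 4.92 in S2/S2-Dl, 5.24 in S2/S2-DlDI, 6.69 in S2/S2-NDCterm and 6.60 in S2-NDCterm/S2-Dl. The NFull mixes had 6.2 without ligand cells, 5.84 with Dl cells and 4.48 with DlDI cells. The value of S2/S2 was the highest, and it rested on replicate 2. The samples of S2/S2 had medians of 7.16, 8.56 and 4.70, and the mix stood at 5.78 without replicate 2. Of 63 Cpr signals above 20 in the whole set, 17 were in that sample, and no other sample had more than 6.

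On every array most Cpr genes lay below the median of all probe sets. Between 46 and 57 of the 66 did so in each sample, which is 69.7% to 86.4%, against 39.7% to 40.4% of all genes. The lowest share was in S2/S2-NDCterm replicate 3 and the highest in S2/S2-DlDI replicate 2.

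The mean signal over 15 samples ran from 1.74 for Cpr66D to 21.0 for Cpr64Ab, with a median of 6.82, and it was below 10 for 47 of the 66 genes. Cpr64Ab was the only member with a mean above 20, and no member was above 10 in every sample. After Cpr64Ab came Cpr47Eb (mean 18.5), Cpr64Ad (16.1), Cpr72Eb (15.5), Cpr67B (15.4), Cpr5C (12.9), Cpr51A (12.6), Cpr67Fa1 (12.2), Cpr66Cb (12.1), Cpr76Ba (12.05), Cpr64Ac (11.7) and Cpr62Bc (11.6). These are signals of different probe sets, which differ in how well they bind, so their order is not an order of transcript amounts.

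**Figure D2:**
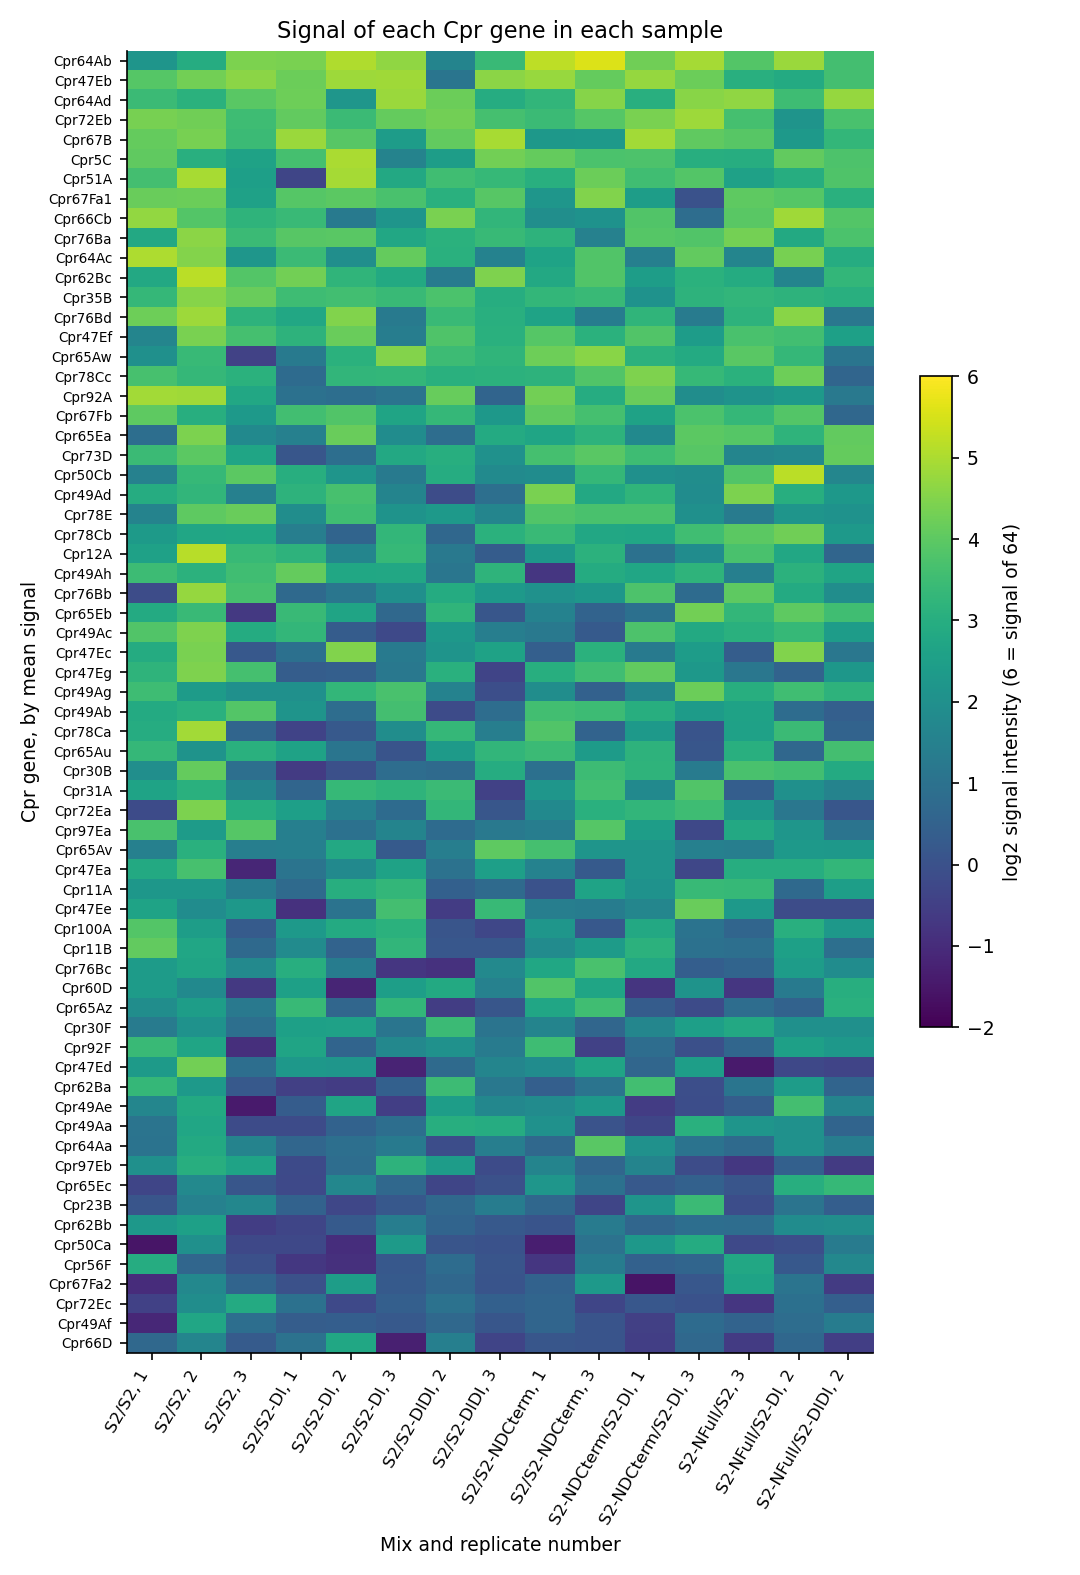
Colour gives the log2 signal intensity of each of the 66 Cpr genes (rows, ordered by their mean) in each of 15 samples (columns). The upper rows, led by Cpr64Ab and Cpr47Eb, are somewhat brighter than the lower ones, and no block of genes stands out in the samples of 1 mix.

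The rank order of the members was only weakly kept between replicates. Spearman's rho over the 66 genes was 0.269 to 0.527 in 9 pairs of replicates of the same mix (median 0.344), and 0.132 to 0.610 in 96 pairs of samples from different mixes (median 0.368). Over all 11981 genes it was 0.899 to 0.925 and 0.893 to 0.923. These are correlations across genes of 1 array type, and genes are not independent replicates. Pairs of the same mix did not have a higher median than pairs of different mixes, so the order of the Cpr signals was no closer within a mix.

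Many Cpr genes are direct neighbours on the chromosome. By the order of protein-coding genes in the reference table, 39 of the 66 lay in 14 runs in which at least 2 Cpr genes follow each other. The longest runs with all genes measured were Cpr47Ec to Cpr47Ef, Cpr64Aa to Cpr64Ad and Cpr76Ba to Cpr76Bd, with 4 genes each. In the 64A run the mean signals ran from 3.56 for Cpr64Aa to 21.0 for Cpr64Ab. In the 47E run they were 4.03 for Cpr47Ed to 10.8 for Cpr47Ef, and in the 76B run 4.60 for Cpr76Bc to 12.05 for Cpr76Ba.

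The probe sets set aside were also low. Both probe sets that name Obp57d together with Cpr57A had signals of at most 13.3, the one for Cpr65Ax1 and Cpr65Ax2 at most 17.5, and the one for Cpr67Fa1 and Cpr67Fa2 at most 16.5. The second probe set of Cpr47Ef ran from 2.61 to 19.1. On the 8 arrays that were left out, the median Cpr signal was 3.28 to 5.85 and the highest was 35.6, for Cpr64Ab on array 1 of S2-NFull/S2-DlDI replicate 1.

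Cpr64Ab had the highest single signal, and its values in the samples were as follows. In S2/S2 it stood at 4.47, 7.75 and 21.3. In S2/S2-Dl it was 21.0, 33.4 and 25.3, and in S2/S2-DlDI it was 3.08 and 10.8. Apart from the lowest Dl sample and the highest S2/S2 sample, which overlapped, the Dl mix was the higher. Beside NDCterm cells, plain cells gave signals of 36.6 and 47.5 and Dl cells 19.1 and 30.4. The NFull mixes had 14.4 without ligand cells, 28.0 with Dl cells and 12.3 with DlDI cells. Both NDCterm samples without Dl cells thus lay above every S2/S2 sample. The log2 difference between these mixes was 0.79 ± 0.21 (SE; 95% interval 0.33 to 1.25), and the adjusted p from limma was 0.232, so it did not pass. S2/S2-Dl against S2/S2 gave 0.45 ± 0.19 (adjusted p = 0.35), and S2/S2-Dl against S2/S2-DlDI gave 0.59 ± 0.21 (adjusted p = 0.38). Cpr64Ab was the highest Cpr gene in 4 of 15 samples.

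Cpr50Cb had the largest range between mixes. It was at 36.3 in S2-NFull/S2-Dl and at 3.19 in S2-NFull/S2-DlDI, each with 1 sample, and at 14.1 in S2-NFull/S2. Everywhere else it was between 2.42 and 15.7. The high value rests on 1 array. The log2 difference between NFull mixes with Dl and with DlDI cells was 0.96 ± 0.23, with an adjusted p of 0.196. With every pair of a shared title averaged, the adjusted p was 0.0424 and Cpr50Cb was called higher, and with array 2 of each pair it was 0.014. Both settings add arrays titled S2-NFull/S2-DlDI that were otherwise left out, and the Dl mix still had 1 sample. The paired arrays of that title differed in Delta by 6.03 (replicate 1) and 8.36 (replicate 3) on the log2(signal + 32) scale, and the part of this in the call was not tested. The other members of the 5 with the largest range were Cpr64Ab, Cpr66Cb, Cpr47Ec and Cpr76Bd, whose mix means spanned 0.71 to 0.93 on the log2(signal + 32) scale.

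Cpr92A had a mean of 21.8 ± 12.9 (SD, n = 3) in S2/S2, from signals of 29.7, 28.9 and 6.95. This was the highest of the members there, but without replicate 2 it was 18.3, below Cpr47Eb (19.7) and Cpr64Ac (18.5). In S2/S2-Dl it was at 1.99, 1.86 and 2.11, so the samples of the mixes did not overlap. The log2 difference was -0.63 ± 0.21, with an adjusted p of 0.209. Samples of equal number in these mixes deviate together, and once that number entered the limma fit as a block, Cpr92A was called lower (adjusted p = 0.0396). In S2/S2-DlDI it was at 17.8 and 1.5. The NDCterm mixes had 19.7 and 7.75 with plain cells and 18.1 and 3.81 with Dl cells. The NFull mixes, each with 1 sample, had 4.28 with plain cells, 4.91 with Dl cells and 2.34 with DlDI cells. The part of Dl cells in the Cpr92A signals was not tested. Against S2/S2, S2-NFull/S2 gave a log2 difference of -0.54 (adjusted p = 0.774), the lowest of the members in that comparison too. Cpr64Ac (19.97 ± 14.2) and Cpr47Eb (19.6 ± 4.94) followed in S2/S2.

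Cpr47Eg had the smallest p value in S2/S2-Dl against S2/S2. Its signals were 9.27, 21.8 and 12.4 in S2/S2 and 1.29, 1.35 and 2.31 in S2/S2-Dl, with no overlap. The log2 difference was -0.46 ± 0.14 and the adjusted p was 0.155. The highest of these signals, 21.8, was in the S2/S2 sample whose low signals were raised.

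Cpr47Eb, second by its mean, stood at 14.7, 19.5 and 24.6 in S2/S2 and at 18.6, 28.2 and 28.8 in S2/S2-Dl. It was at 2.17 and 24.2 in S2/S2-DlDI. Beside NDCterm cells it stood at 27.3 and 17.3 with plain cells and at 26.4 and 18.6 with Dl cells. The replicates of S2/S2-DlDI thus spanned nearly the whole range of the gene. Cpr66Cb was at 26.2, 14.5 and 9.17 in S2/S2 and at 10.8, 2.41 and 4.52 in S2/S2-Dl, which overlapped, and its highest signal, 28.9, was in S2-NFull/S2-Dl. Cpr47Ec was above 20 in 3 samples that share no mix, S2/S2 replicate 2 (20.8), S2/S2-Dl replicate 2 (22.2) and S2-NFull/S2-Dl replicate 2 (22.5), and at most 8.72 elsewhere. Cpr76Bd was highest in the same samples, at 28.3, 22.2 and 24.0. All 3 carry replicate number 2. The samples of that number in S2/S2-DlDI and S2-NFull/S2-DlDI were lower, at 4.39 and 2.27 for Cpr47Ec and at 10.6 and 2.26 for Cpr76Bd. The part of the number in these signals was not tested.

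**Figure D3:**
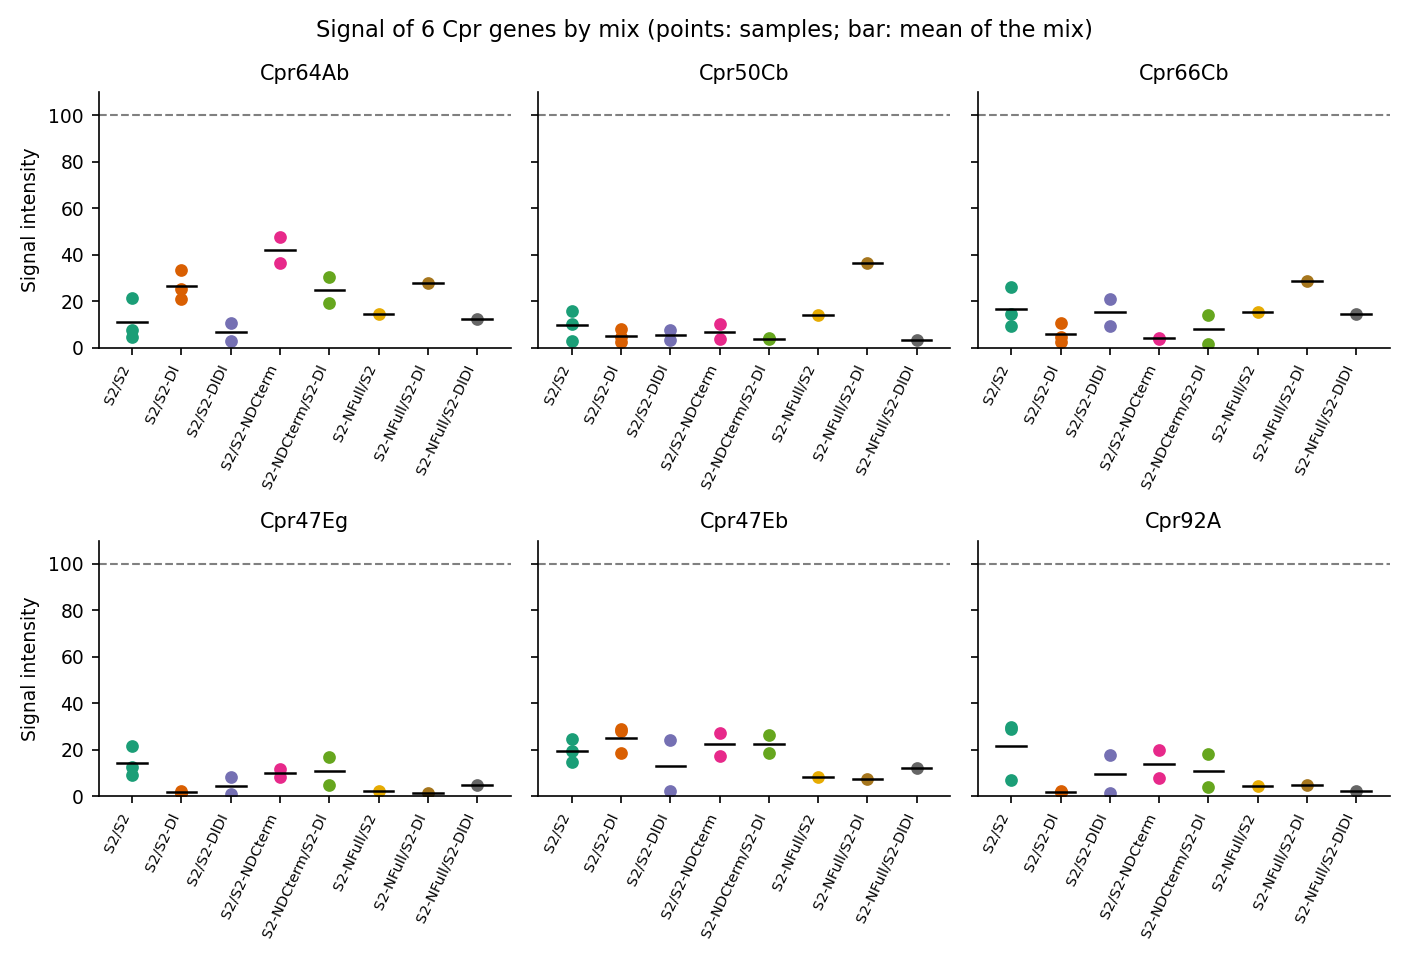
Signal intensity (linear axis) of 6 Cpr genes in the samples of the 8 mixes, with a bar at the mean of each mix and a dashed line at 100. The highest points are 47.5 for Cpr64Ab in S2/S2-NDCterm and 36.3 for Cpr50Cb in the single sample of S2-NFull/S2-Dl.

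Adding Dl cells or DlDI cells to S2 cells left no Cpr gene past the test. In S2/S2-Dl against S2/S2, 0 of 66 passed and 1.31% of all probe sets tested did. At that share 0.862 calls would fall among 66 genes, so a count of 0 is no result about the Cpr genes. An unadjusted p under 0.05 was found for 6 of the 66, against 13.5% of all genes. With replicate number as a block 540 probe sets passed in place of 245, and Cpr92A was the 1 Cpr gene among them. In S2/S2-DlDI against S2/S2, 0 of 66 passed in limma, with 0.0746% of all probe sets. An unadjusted p under 0.05 was found for 5 of the 66, against 8.59% of all genes in either direction, and all 5 were lower. Of the 66 differences, 46 were negative with Dl and 55 with DlDI, with medians of -0.07 and -0.10, and the median over all genes was -0.05 in both. Negative differences were not counted over all genes, so these counts do not show a trait of the Cpr genes. The higher low signals of S2/S2 replicate 2 enter both comparisons. Without that sample no Cpr gene was called in either.

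S2/S2-Dl against S2/S2-DlDI, which compares the full with the truncated Delta, also gave 0 of 66 in limma, with 0.639% of all probe sets passing and 3 Cpr genes at an unadjusted p under 0.05 (9.88% of all genes). Here 40 differences were positive, and the median was 0.01, with 0.01 over all genes too.

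No Cpr gene passed in the comparisons of Notch lines either. In S2/S2-NDCterm against S2/S2, 0 of 66 passed in limma (0.165% of all probe sets), and 5 had an unadjusted p under 0.05 (10.7% of all genes), among them Cpr64Ab. When Dl cells took the place of plain cells beside NDCterm, 0 of 66 passed in limma (0.49% of all probe sets), with 5 at an unadjusted p under 0.05 (8.76% of all genes). Cpr67B was highest among the latter differences, at 23.0 against 4.85 (0.57 ± 0.23, adjusted p = 0.544). In S2-NFull/S2 against S2/S2, 0 of 66 passed in limma (0.181% of all probe sets), with 2 at an unadjusted p under 0.05 (7.48% of all genes).

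All 3 NFull mixes rest on 1 sample each and borrow their spread from the other mixes. With Dl cells against plain cells beside NFull, 0 of 66 passed in limma (0.293% of all probe sets), and 3 had an unadjusted p under 0.05 (10.2% of all genes). With DlDI cells against plain cells it was 0 of 66 in limma (0.0213% of all probe sets), and 3 had an unadjusted p under 0.05 (3.68% of all genes). With Dl against DlDI cells it was 0 of 66 in limma (0.213% of all probe sets), and 5 had an unadjusted p under 0.05 (7.77% of all genes).

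The question whether a ligand line acts differently beside a Notch line was put to interaction terms. For Dl cells beside NDCterm against Dl cells beside S2, 0 of 66 passed in limma (0.0107% of all probe sets). An unadjusted p under 0.05 was found for 6 of the 66 (9.09%), against 3.23% of all genes. For Dl cells beside NFull against beside S2 it was 0 of 66 in limma (0.0213% of all probe sets), with 2 at an unadjusted p under 0.05 (4.6% of all genes). For DlDI cells beside NFull against beside S2 it was 0 of 66 in limma (0% of all probe sets), with 2 at an unadjusted p under 0.05 (2.4% of all genes). Cpr64Ab had the lowest of the differences in the first of these, at -0.84 ± 0.30 (adjusted p = 0.997).

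Across the 12 comparisons the 792 differences of Cpr genes ran from -0.84 to 0.96, with 47 at an unadjusted p under 0.05, or 5.93%, against 7.57% over all genes. In single comparisons the Cpr share lay on either side of that of all genes. The comparisons share samples, so these are not independent counts. The intervals of the differences were set only against a rise to a signal of 100. They say little about smaller changes, which the offset shrinks. With no Cpr signal above 47.5, the outcome that follows was largely fixed in advance. In each of the 9 comparisons between a pair of mixes, the upper 95% bound of all 66 differences was below the rise that would have carried the gene from its mean in the second mix to a signal of 100.

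**Figure D4:**
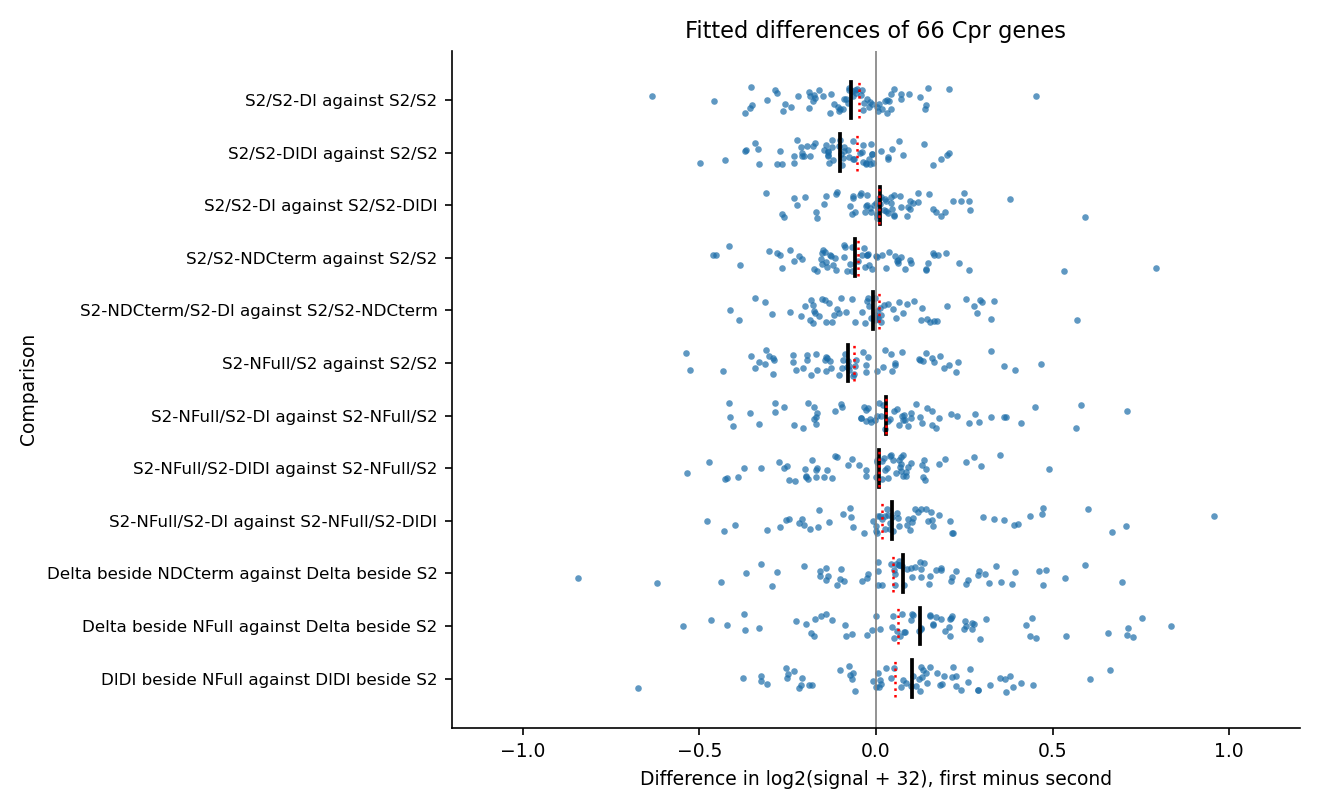
Fitted differences in log2(signal + 32) of the 66 Cpr genes (points) in 12 comparisons, the last 3 of them interaction terms. The black bar is their median, between -0.10 and 0.12, the red dotted bar is the median over all genes, and no point lies beyond 0.96.

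Cuticle proteins of other families also had low signals. Of 49 measured genes of the Lcp, Ccp84, Edg, Twdl and obst groups and their like, 0 had a mean above 100 in S2/S2, and their median was 9.44. TwdlK, a Tweedle protein of the cuticle, was highest at 53.2 ± 48.1 (n = 3), from 109 in S2/S2 replicate 2 and 27.8 and 23.1 in the others. TwdlH (26.4 ± 10.2), TwdlC (22.7 ± 11.96) and TwdlY (22.7 ± 4.20) followed. No gene of this list was called in any of the 12 comparisons, in which 0% to 1.31% of all probe sets passed. At such shares a count of 0 among 49 genes is no result about them.

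For scale, the genes of chemosensory receptors were added after the Cpr values had been seen. In S2/S2 the median of 56 odorant receptor genes was 7.22 and that of 56 gustatory receptor genes was 8.09, beside 8.59 for the Cpr genes, and 0 genes of either family were above 100. Or82a, an odorant receptor, reached 112 in S2/S2-DlDI (adjusted p = 0.00643 against S2/S2, with 0.0746% of all probe sets passing), a size that no Cpr gene reached. S2/S2-Dl, where Or82a was at 5.24, gave -1.96 against S2/S2-DlDI (adjusted p = 0.000232, with 0.639% of all probe sets passing). The highest gustatory receptor gene was at 75.4 in S2/S2, and 1 gene of that family was above 100 in at least 1 mix.

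Of the genes that make and shape chitin, 3 that supply its sugar were above 100 and the others were not. Gfat2 (1240 ± 177), mmy (284 ± 89.0) and Gnpnat (274 ± 44.2), which make the sugar nucleotide used for chitin and also for other glycans, were above 100 in every mix. They were the only 3 of 19 measured genes above 100 in S2/S2 (15.8%, against 38.5% of all genes), where the median was 9.45. kkv, the chitin synthase of the epidermis, stood at 8.13 ± 7.48 in S2/S2 and reached at most 19.5 in any sample. Of 11 measured genes of tanning and pigment, yellow-f (522 ± 295) and stw (167 ± 55.6), a laccase, were the 2 above 100 (18.2%, against 38.5% of all genes), while ple and Ddc, which make dopamine, were at 1.58 ± 0.778 and 17.6 ± 8.997. Here kkv, ple and grh below were named outside the rule for named genes, after their values had been seen.

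Other epidermal genes were mixed. Among 12 regulators of epidermis and of cuticle timing, usp (718 ± 99.5), ftz-f1 (493 ± 32.2) and Hr39 (144 ± 32.1), all nuclear receptors, were above 100 in every mix. In S2/S2 they were the only 3 (25% of the list, against 38.5% of all genes), and EcR, the ecdysone receptor, was at 47.6 ± 15.5. grh, a transcription factor of epidermal barrier genes, was at 9.05 ± 1.86 and reached at most 10.7 in any sample. ovo, which shapes epidermal hairs and acts in the germline, rose from 29.3 ± 8.17 in S2/S2 to 156 in S2/S2-Dl (log2 difference 1.61, adjusted p = 0.000224). In that comparison 1.31% of all probe sets passed. ovo was also higher in S2/S2-Dl than in S2/S2-DlDI (1.53, adjusted p = 0.00136, with 0.639% of all probe sets passing). Beside NDCterm, ovo was higher with Dl cells than with plain cells (1.97, adjusted p = 0.000545, with 0.49% of all probe sets passing). The single sample of S2-NFull/S2, which has no Delta cells, was at 141 (1.51 against S2/S2, adjusted p = 0.0265, with the spread taken from the other mixes). Of 8 measured genes for apical hairs and the apical matrix, 0 were above 100 (median 11.4). Of 15 junction genes 8 were above 100 (53.3%, against 38.5% of all genes), led by par-6 (1858 ± 258), a polarity protein of many cells, and cora (1034 ± 224), Nrx-IV (365 ± 69.7) and pck (296 ± 35.4) of the septate junction. The epithelial cadherin shg was at 7.29 ± 5.05, also named after its value had been seen.

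Most markers of plasmatocytes, the phagocytic blood cells, were above 100. Of 11 plasmatocyte markers 8 were above 100 in S2/S2 (72.7%, against 38.5% of all genes, median 287). Among them were ush (1070.0 ± 375), Pxn (622 ± 275) and srp (599.7 ± 21.4), a GATA factor of blood and fat body. Hml, named like kkv after its value was seen, was at 8.79 ± 8.77. In every mix 6 of the 11 plasmatocyte markers were above 100, and the median of the list ran from 132 to 360 between mixes. crq, a receptor for dead cells, was the only gene called in that list, from 287 in S2/S2 to 484 in S2/S2-Dl (0.70, adjusted p = 0.0244). In that comparison 1.31% of all probe sets passed. The Idgf genes, secreted relatives of chitinases that blood cells and fat body make, were above 100 in 4 of 6 cases, led by Idgf6 (2258 ± 337), Idgf3 (1691 ± 253) and Idgf2 (1300 ± 253). Idgf6 was the only gene called in that list, higher in S2/S2-Dl than in S2/S2 (0.79, adjusted p = 0.00323) and than in S2/S2-DlDI (0.63, adjusted p = 0.0494). Of all probe sets, 1.31% and 0.639% passed in these comparisons. In the lists for other tissues, 1 of 7 crystal cell and lamellocyte markers was above 100 (mys, an integrin of many cells, 3213 ± 717). So was 1 of 3 genes listed for trachea (bnl, a signal to tracheal cells rather than a marker of them, 142 ± 34.3). Above 100 were also 1 of 5 neuron markers (elav, 206 ± 47.8), 0 of 3 for muscle and 0 of 4 for fat body. With 38.5% of all genes above 100, counts in lists this short do not tell them from genes in general.

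**Figure D5:**
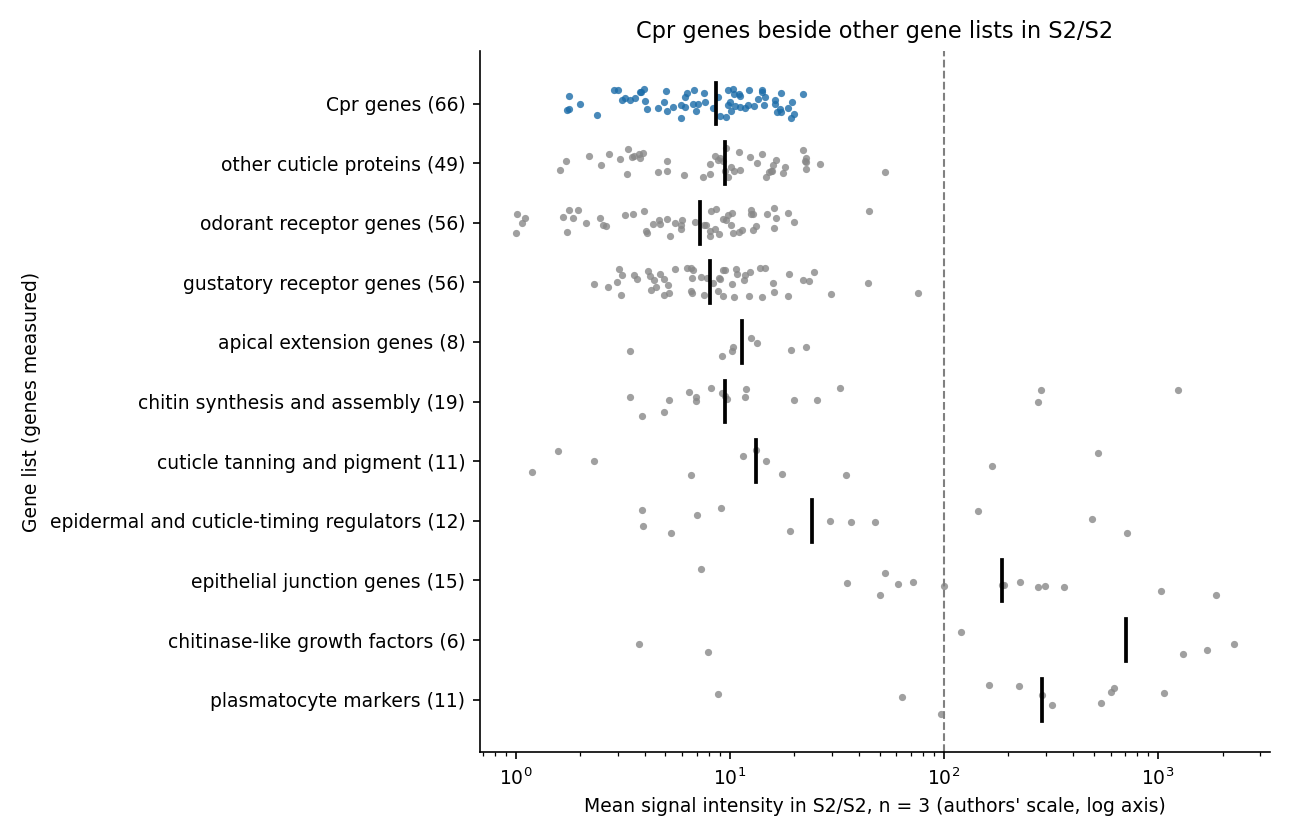
Mean signal intensity in S2/S2 (n = 3, log axis) of each gene, by list, with a black bar at the median of the list and a dashed line at 100. All 66 Cpr genes (blue) and 49 other cuticle protein genes lie below 100, as do both receptor families, while 8 of 11 plasmatocyte markers lie above it.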

How the data were processed

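The deposited table held 1 signal intensity per probe set for each of 24 arrays, on a linear scale. These values have a 2%-trimmed mean of 150.004 to 150.005 throughout, and the scaling by the authors was kept. The sources used here do not name the software. Of 18952 probe sets, 183 were controls, and the remaining 18769 were all tested. A probe set annotation of the platform named single genes for 13646, and symbols were updated through RefSeq (Release 6 plus ISO1 MT).

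With limma 3.58.1 in R 4.3.3, 1 linear model of log2(signal + 32) covered 15 samples in 8 mixes, a prior variance that follows the mean level (residual df 7, prior df 6.26), and 12 contrasts. The offset shrinks changes of low signals. A call needs a Benjamini-Hochberg adjusted p below 0.05 over all probe sets of a contrast, and every adjusted p here comes from limma. For arrays of a shared title to be averaged, the SD of their log2 difference had to be below the lowest among 9 pairs of separate replicates (0.213 to 0.488). Their Delta signals also had to differ by no more than in those pairs. The averaged pair had an SD of 0.126 and a log2 difference in Delta of 0.288. The title of S2/S2 replicate 3 was followed although its description gives another number.

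A gene is stood for by its probe set with the highest mean. Named were the 12 Cpr genes with the highest mean, any called, the 5 with the largest range between mixes, those on either side of a signal of 100 in S2/S2, and for the other lists the called members and the highest in S2/S2. Members and lists were chosen with earlier results of these data known. For S2/S2 and S2/S2-Dl, residuals of the same replicate number correlated at 0.506, 0.272 and 0.377, which is where the pairing comes from. With S2/S2 the correlations were 0.202 and 0.285 for S2/S2-DlDI, and only 0.040 and 0.034 for S2/S2-NDCterm. The block was fitted to all mixes all the same. P values measure the spread between the deposited samples. The procedure was tested on simulated data.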

Additional observations from a re-analysis of the deposited data

How the results depend on the processing

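The count of Cpr genes called in each of 12 comparisons, and the counts of Cpr genes above a signal of 100 in S2/S2 and in all mixes, were recomputed under 25 settings, which gave 295 values, and 291 of these were 0. With replicate number as a block the count was 1 in S2/S2-Dl against S2/S2 (Cpr92A, lower), with 540 calls over all probe sets in place of 245, and the block changed no other Cpr call. With every pair of a shared title averaged, and with array 2 of each pair, it was 1 for Dl against DlDI cells beside NFull (Cpr50Cb, higher), with 29 and 105 calls over all probe sets in place of 40. With a level of 20 in place of 100, added after seeing the data, 1 Cpr gene (Cpr92A) was above it in S2/S2, and 0 without replicate 2, a sample also left out, after seeing the data, from the order of the Cpr genes in S2/S2. Calls over all probe sets ran from 77 to 540 in S2/S2-Dl against S2/S2. In S2/S2-NDCterm against S2/S2 they were 6 in a fit of only these mixes, 31 in the main setting and 295 with the block. These totals cover far more features than the 66 Cpr genes, so their movement cannot be set beside that of the Cpr counts. In the main setting the share called would give 0.862 Cpr calls in S2/S2-Dl against S2/S2 and fewer elsewhere. Counts of 0 are thus no result about the Cpr genes. Leaving out each of 12 samples in turn gave counts of 0 to 0. The NFull samples could not be left out, since each was the only one of its mix. Quantile normalization, a smaller and a larger offset, no mean trend, array 1 of each pair, levels of 50 and 200 for the count above 100, a fit on the compared mixes where residual degrees of freedom remained, and the mean of all probe sets of a gene called none. After quantile normalization the highest single Cpr signal was 50.2. With only probe sets of a mean signal of at least 50, no Cpr gene was left to test. The cause of the added calls was not tested. Most Cpr signals lay below the array median, and Spearman's rho between replicates was at most 0.527 over the Cpr genes, which limits what their differences show.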
